A study of Mus musculus with 6 samples.

Results

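The immunoproteasome and the machinery that loads peptides onto class I molecules were examined in CD45- cells sorted from MMTV-PyMT mammary tumor transplants through 10 genes, namely Psmb8, Psmb9 and Psmb10, Psme1 and Psme2, Tap1 and Tap2, Tapbp, Tapbpl and B2m. A probe counted for a gene when its accession mapped to that symbol in RefSeq. In this way 9 of the 10 genes had a probe, and all 9 were among the 22502 genes or unnamed transcripts tested. Psme2 had no matched probe and was not analysed here. This matching rule used symbols and accessions and no measured value, but the members themselves were chosen with earlier results of these data known.

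Donor tumor cells carried polyomavirus middle T (PyMT) under the MMTV promoter, which is active mainly in mammary epithelium, and were either RANK+/+ or RANK-/- (RANK, encoded by Tnfrsf11a, is the receptor activator of NF-kB). Late carcinoma cells of both genotypes, on a C57BL/6 background, were grown orthotopically in C57BL/6 hosts, so that stroma recruited from the host carried intact RANK in both arms. Live CD45- cells were then sorted, which depletes leukocytes and enriches tumor cells but leaves fibroblasts and endothelial cells in. Each 2-color array held 1 RNA of each genotype, and 3 pairs of RNAs were measured on 2 technical replicate arrays each (A and B), 6 arrays in all. Separate tumors are not stated as the source of the 3 RNAs per genotype, so p values measure only the spread between these RNAs, which may be technical.

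Proteins in the cytosol are cut to peptides by the proteasome, whose 3 catalytic subunits Psmb5, Psmb6 and Psmb7 are replaced by Psmb8, Psmb9 and Psmb10 in the immunoproteasome. Interferon gamma is the classical inducer of these subunits, of the PA28 activator (Psme1 and Psme2) and of the TAP transporter, which carries peptides into the endoplasmic reticulum. There tapasin and its partners place the peptide on a class I heavy chain bound to beta2-microglobulin, and the complex is shown to CD8+ T cells. Tumor cells can lose this machinery, and it is much studied in breast cancer for that reason.

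In the reference genome, Psmb9, Tap1, Psmb8 and Tap2 are neighboring protein-coding genes on chromosome 17, in this order, within the major histocompatibility complex, and Tapbp lies on the same chromosome. Promoter windows of 250 bases before to 50 after the gene start (RefSeq, GRCm38.p6) were held for 8 of the 10 genes. The windows of Psmb9 and Tap1 face each other on opposite strands and share 275 bases, with 225 bases between the starts, so both genes are shown by 1 sequence. B2m is shown because it had the largest mean ratio of the members, and Psmb8 because its window alone among the 8 genes held a GAS element. Capitals mark every match, on either strand, to the ISRE core (GAAANNGAA), the GAS element (TTCNNNGAA), the NF-kB consensus or the GC box (GGGCGG).
Tap1, chr17:34187306-34187605, + strand: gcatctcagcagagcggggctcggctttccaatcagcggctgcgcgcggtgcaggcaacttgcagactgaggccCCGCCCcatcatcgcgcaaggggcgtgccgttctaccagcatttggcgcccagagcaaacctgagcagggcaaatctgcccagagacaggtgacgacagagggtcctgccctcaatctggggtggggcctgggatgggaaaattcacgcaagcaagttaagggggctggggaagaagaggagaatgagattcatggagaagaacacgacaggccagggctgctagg
Psmb8, chr17:34197945-34198244, + strand: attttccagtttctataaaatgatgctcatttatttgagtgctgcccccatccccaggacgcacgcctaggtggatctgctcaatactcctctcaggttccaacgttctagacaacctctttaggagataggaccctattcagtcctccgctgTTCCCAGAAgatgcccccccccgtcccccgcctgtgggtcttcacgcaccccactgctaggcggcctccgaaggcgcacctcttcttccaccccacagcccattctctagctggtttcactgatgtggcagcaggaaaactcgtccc
B2m, chr2:122147437-122147736, + strand: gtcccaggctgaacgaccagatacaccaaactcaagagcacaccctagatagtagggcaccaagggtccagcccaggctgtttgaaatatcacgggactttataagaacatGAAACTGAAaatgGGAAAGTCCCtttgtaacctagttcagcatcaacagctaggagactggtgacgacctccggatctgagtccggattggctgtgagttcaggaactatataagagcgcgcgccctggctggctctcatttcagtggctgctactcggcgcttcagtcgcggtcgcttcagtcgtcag
The 275 bases shared by Psmb9 and Tap1 held a GC box, 55 bases upstream of the Psmb9 start, and no match to the other motifs. In B2m an ISRE core began 139 bases and an NF-kB consensus 126 bases upstream of the start, without overlap. Psmb8 held a GAS element from 97 bases upstream. An ISRE core was found in 2 of the 8 genes (B2m and Psme1), a GAS element in 1, an NF-kB consensus in 1 and a GC box in 5. Of all 32851 promoter windows, 8.56% held the ISRE core, 8.3% the GAS element, 8.46% the NF-kB consensus and 35.7% the GC box. These matches describe letters in a short window and nothing about binding.

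The signal of the deleted gene was checked first. Tnfrsf11a had log2 ratios of 2.03, 1.15 and 1.76 in pairs 1 to 3, where a positive ratio stands for more signal under the RANK-/- label. The label and the signal thus disagreed in all 3 pairs, and every direction given here is that of the labels, so that exchanged labels would turn every sign. Whether this probe lies inside the deleted part of the gene is not given in the sources used here. Between 51.9% and 58.8% of the 55681 gene probes stood well above background, counted per array and label, and no spot was saturated. Pair 1 carried RANK-/- in Cy5 and pairs 2 and 3 carried RANK+/+ in Cy5, so the dye arrangement and the identity of pair 1 cannot be told apart. All 6 arrays lay on 1 slide.

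Under the main normalization, all 9 measured members had ratios above 0 in pairs 2 and 3, while in pair 1 their median was near 0. With the processed intensities or the ratios normalized by the authors, Psme1 was above 0 in only 1 pair. Over the members the median log2 ratio was 0.0047, 1.15 and 1.29 in pairs 1 to 3, against 0.015, -0.012 and 0.0012 over all 22502 genes. The members ran from -1.24 to 0.83 in pair 1, from 0.51 to 1.95 in pair 2 and from 0.11 to 1.83 in pair 3. Of all genes, 23.5% were above 0 in both pairs 2 and 3. In all 3 pairs, 5 of the 9 members were above 0 (Psmb10, Psme1, Tapbp, Tapbpl and B2m), beside 9.95% of all genes above 0 and 9.65% below 0 in all 3 pairs. The median of the members' mean ratios was 0.86, beside 0.0045 over all genes, and it was 1.45 without pair 1. The SD over pairs of the members' median, which reflects the gap between pair 1 and the other pairs, was 0.70. It was 0.66 to 0.71 with the other background corrections, a spatial loess, the processed intensities or the ratios normalized by the authors. Only with median centring in place of loess did the gap narrow, to an SD of 0.22, with a median of the means of 0.62. Under that setting 7 members were above 0 in all 3 pairs, and Psme1 and Tap1 were above 0 in 2.

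No member passed limma at an adjusted p of 0.05, and neither did any of the 22502 genes (0, 0%), the smallest adjusted p being 0.9995. At an unadjusted p under 0.05, 647 genes were found, of which 373 (1.66%) were above 0, and 3 of these were members (Psmb10, Tapbpl and B2m). The rank product, run as a second test, called 10 genes higher in the channel labeled RANK-/- (0.0444%) and 6 lower, with no member among them. Its proportion of false positives (pfp) for the members ran from 0.362 for B2m to 1.20 for Psme1. These values are those of single genes in a design of 3 pairs, in which the median SD between pairs over all genes was 0.33.

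**Figure D1:**
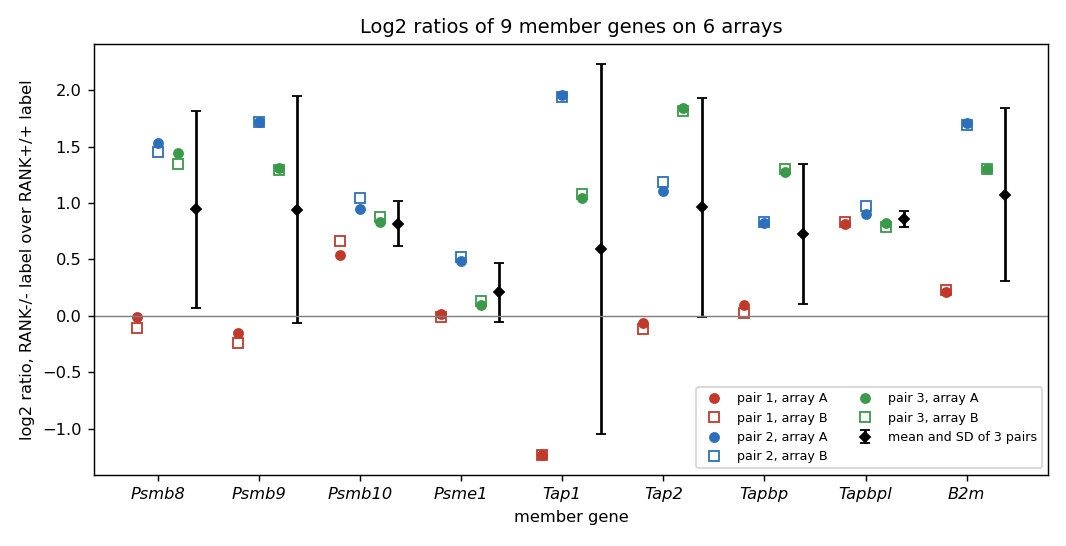
Log2 ratio of the RANK-/- label over the RANK+/+ label for each measured member gene, with filled circles for arrays A, open squares for arrays B, a color per pair, and diamonds with bars for the mean and SD of 3 pairs. Arrays A and B nearly coincide for every gene, pair 1 (red) lies at or below the other pairs except for Tapbpl, and Tapbpl and Psmb10 have the shortest bars.

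Psmb8, the chymotrypsin-like catalytic subunit that replaces Psmb5, gave log2 ratios of -0.01 and -0.11 on arrays A and B of pair 1, 1.54 and 1.45 in pair 2, then 1.44 and 1.35 in pair 3. Its mean was 0.94 ± 0.87 (SD, n = 3), with a 95% confidence interval of -0.05 to 1.94 and an unadjusted limma p of 0.058. Psmb9, which replaces Psmb6, gave -0.15 and -0.24, then 1.72 and 1.72, then 1.31 and 1.29, with a mean of 0.94 ± 1.01. Both genes were therefore between 2.46-fold and 3.30-fold higher in the channel labeled RANK-/- in pairs 2 and 3, and close to equal in pair 1. Psmb10, which replaces Psmb7, had a ratio above 0 on all 6 arrays, with 0.54 and 0.67, then 0.95 and 1.05, then 0.83 and 0.87. Its mean of 0.82 ± 0.20 (1.76-fold, interval 0.40 to 1.24) had an unadjusted limma p of 0.0051, the 58th smallest of all genes, and an adjusted p of 0.9995.

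In pairs 2 and 3 the constitutive subunits had ratios closer to 0 than their counterparts. Psmb5 had 0.07, -0.05 and -0.01 in pairs 1 to 3, Psmb6 had 0.45, -0.16 and -0.12, and Psmb7 had -0.20, 0.05 and -0.09. None of the 3 was above 0 in all pairs, and their median was 0.0033. Psmb8 minus Psmb5 was -0.13, 1.54 and 1.40 on the log2 scale, and Psmb9 minus Psmb6 was -0.64, 1.88 and 1.42. These differences used the brightest probe of each gene. A second kept Psmb5 probe was at -0.26, 0.20 and 0.17, which in pair 1 is below Psmb8 (-0.06). The pair 1 sign of Psmb8 minus Psmb5 thus depended on the probe taken. Psmb10 minus Psmb7 was 0.80, 0.95 and 0.94, a mean difference of 0.89 ± 0.08 that kept its sign in all 3 pairs. An exact two-sided sign-flip test over 3 pairs cannot give a p under 0.25. It gave 0.50, 0.50 and 0.25 for these differences (0.667 for each after adjustment over 4 differences).

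**Figure D2:**
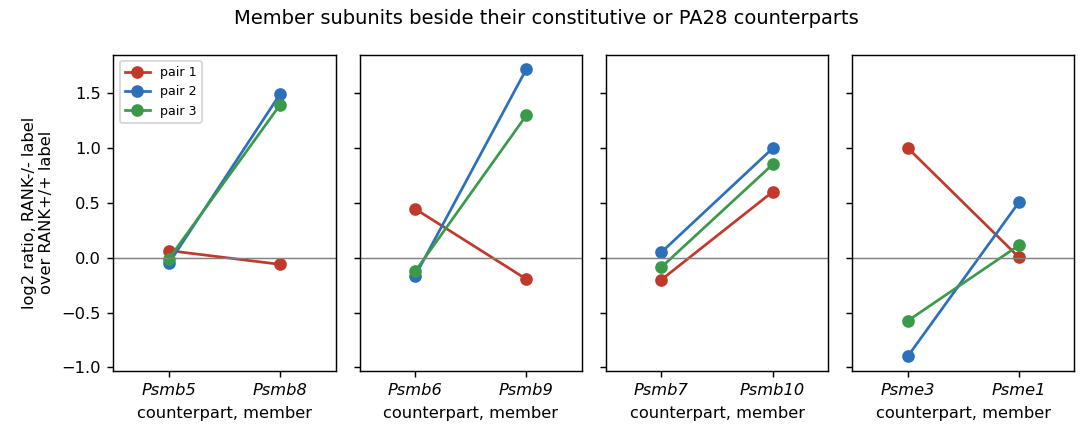
Log2 ratio (RANK-/- label over RANK+/+ label) of each member subunit at the right of a panel and of its constitutive or PA28 counterpart at the left, joined by a line per pair. Psmb10 lies above Psmb7 in all 3 pairs, whereas pair 1 runs downward in the other 3 panels. Psmb5 is drawn by its brightest probe, and its other kept probe lay below Psmb8 in pair 1.

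Psme1, the alpha subunit of the PA28 activator that opens the proteasome's entry pore, had the smallest mean ratio of the members. Its ratios were 0.02 and -0.01 in pair 1, 0.49 and 0.52 in pair 2, then 0.09 and 0.13 in pair 3, and its mean was 0.21 ± 0.26, with an unadjusted limma p of 0.28. Its place among the genes above 0 in all pairs rested on a pair 1 ratio of 0.0047, and its mean turned to -0.13 when arrays were centred on their median in place of loess. It was above 0 in only 1 pair with the processed intensities (mean 0.16) and with the ratios normalized by the authors (mean 0.08). The probe was spotted 10 times per array, of which 8 to 10 spots entered a mean, with an SD over spots of 0.05 to 0.10. Psme3, the nuclear PA28 gamma subunit that is not part of the interferon-induced set, had 1.00, -0.90 and -0.58. Psme1 minus Psme3 was -0.997, 1.40 and 0.69 (exact p = 0.75, adjusted p = 0.75).

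The TAP transporter genes were not alike. Tap1 gave the lowest and the highest ratio of any member, at -1.24 on both arrays of pair 1, 1.96 and 1.94 in pair 2, then 1.05 and 1.08 in pair 3. As a linear ratio this was 0.424 in pair 1 and 3.87 in pair 2. The mean of 0.59 ± 1.65 had an interval of -1.19 to 2.38, and it turned to -0.09 without pair 2. The spots of this probe, 8 to 10 per array, spread by an SD of 0.03 to 0.07. Between pairs its SD of 1.65 stood beside a median of 0.33 over all genes. Tap2 gave -0.06 and -0.12, then 1.11 and 1.18, then 1.84 and 1.81, with a mean of 0.96 ± 0.97 and an unadjusted limma p of 0.072. Tap2 was thus at its highest in pair 3, where it was 3.55-fold higher, and Tap1 in pair 2. Psmb9, which shares its promoter window with Tap1, was at -0.20 in pair 1 beside -1.24 for Tap1, and at 1.72 and 1.30 beside 1.95 and 1.06 in the other pairs.

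Tapasin, encoded by Tapbp, holds the class I molecule at the transporter, and the related protein TAPBPR, encoded by Tapbpl, edits peptides away from the transporter. Tapbp gave 0.10 and 0.02 in pair 1, 0.83 and 0.83 in pair 2, then 1.27 and 1.30 in pair 3, a mean of 0.73 ± 0.62. Tapbpl had the smallest SD of the members under loess, with 0.82 and 0.84 in pair 1, 0.90 and 0.97 in pair 2, then 0.83 and 0.79 in pair 3. Its mean was 0.86 ± 0.07 (1.81-fold), with an interval of 0.49 to 1.23. By limma its unadjusted p of 0.0026 was the 26th smallest of all genes, and its adjusted p was 0.9995. With the other background corrections, a spatial loess, the processed intensities or the ratios normalized by the authors, the SD of Tapbpl was 0.05 to 0.08. The small spread was lost with median centring in place of loess. The SD was then 0.38 for Tapbpl (mean 0.67) and 0.41 for Psmb10 (mean 0.46, unadjusted limma p of 0.126), and Tapbp had the smallest SD, at 0.14. Under loess, the difference between the labels in pair 1 was largest for Tapbpl, Psmb10 and Tap1, the last in the opposite direction.

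B2m encodes beta2-microglobulin, the light chain that every classical class I molecule needs to reach the surface. Its ratio was 0.21 and 0.23 in pair 1, 1.71 and 1.69 in pair 2, then 1.30 and 1.30 in pair 3. The mean of 1.07 ± 0.77 (2.11-fold, interval 0.19 to 1.96) was the largest of the members, with an unadjusted limma p of 0.028 and an adjusted p of 0.9995. This rank was not kept throughout: with median centring B2m had a mean of 0.62, below Tapbpl at 0.67, Psmb9 at 0.66 and Tap2 at 0.64. Without pair 1 the largest mean was that of Psmb9 (1.51), and without pair 2 that of Tap2 (0.87). The 3 pairs held 1 sign for B2m, but pair 1 was 1.17-fold and pair 2 was 3.25-fold.

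The levels behind these ratios showed which RNAs differed under loess. Levels were not computed under the other normalizations, so the order of the RNAs given here holds for loess only. For all 9 members the highest of the 6 levels was the RANK-/- label of pair 2, and the lowest was the RANK+/+ label of pair 3. Of all genes, 15.0% had their highest level there, 18.2% had their lowest level there, and 3.22% had both. On the log2 normalized intensity scale, Psmb8 was at 14.26, 15.41 and 13.49 under the RANK-/- label in pairs 1 to 3, and at 14.32, 13.91 and 12.10 under the RANK+/+ label. Tap1 was at 9.87, 11.58 and 9.94 beside 11.11, 9.63 and 8.87. B2m was at 16.56, 17.29 and 16.06 beside 16.34, 15.59 and 14.76. In all 3 genes the RANK+/+ RNA of pair 1 was the highest of its label and lay above the RANK-/- RNA of pair 3. Levels of different probes are not compared here, since each probe has its own response.

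Under loess, levels of Tapbpl and Psmb10 ran in parallel instead. With median centring the SD of the pair ratios was 0.38 for Tapbpl and 0.41 for Psmb10. It was then 0.40 for Psmb8, 0.39 for B2m and 1.36 for Tap1, so only Tap1 of these 3 stayed apart. Tapbpl was at 10.18, 10.46 and 9.50 under the RANK-/- label and at 9.35, 9.52 and 8.69 under the RANK+/+ label. Psmb10 was at 15.09, 15.54 and 14.09 beside 14.49, 14.54 and 13.24. In both genes each RANK-/- RNA lay above its partner, but the RANK-/- RNA of pair 3 lay below the RANK+/+ RNA of pair 2. The labels overlapped for all 9 members when pairs were ignored, though for Tapbpl only by 9.50 against 9.52. Only 3.69% of all genes had all 3 RANK-/- levels above all 3 RANK+/+ levels, so this overlap does not set the members apart. Averaged without regard to pairs, Psmb8 was at 14.39 ± 0.96 under the RANK-/- label and at 13.44 ± 1.18 under the RANK+/+ label (SD, n = 3), a gap no larger than the spread within a label. For Psmb10 these levels were 14.91 ± 0.74 and 14.09 ± 0.74, a gap slightly above the SD of either label, and for Tapbpl 10.05 ± 0.49 and 9.19 ± 0.44, a gap clearly above it.

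Between RNAs the members varied more than most genes. The gap between the highest and the lowest of the 6 levels was 3.31 for Psmb8, 3.34 for Psmb9, 2.85 for Tap2, 2.71 for Tap1, 2.53 for B2m and 2.30 for Psmb10 on the log2 scale, beside a median of 0.64 over all genes. For 8 of the 9 members this gap was above the 90th percentile of all genes. Psme1, with a gap of 0.77 (percentile 61.6), was the exception. The constitutive subunits Psmb5 and Psmb7 had gaps of 0.44 and 0.36, and Psmb6 had 0.82.

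**Figure D3:**
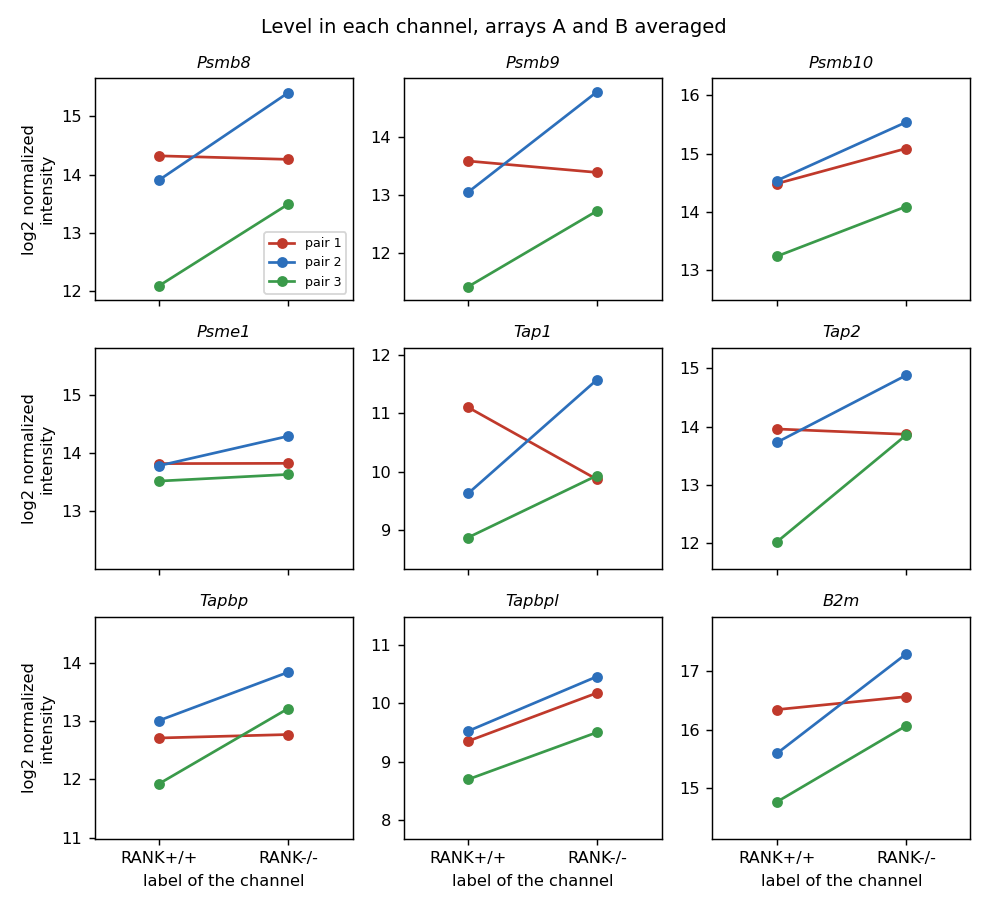
Log2 normalized intensity of each member under the RANK+/+ label (left) and the RANK-/- label (right), averaged over arrays A and B, with a line joining the RNAs of 1 pair. All panels span the same height on the log2 scale. The RANK-/- RNA of pair 2 is the top point and the RANK+/+ RNA of pair 3 the bottom point in every panel. Under loess, as drawn here, the lines of Tapbpl and Psmb10 run nearly parallel.

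Class I heavy chains, the partners of B2m, were also mostly above 0. Of 15 listed genes 13 were tested, 10 were above 0 in all 3 pairs, and 6 were at an unadjusted limma p under 0.05, all of them above 0, although none passed after adjustment. Of all genes, as given above, 9.95% were above 0 in all 3 pairs and 1.66% were above 0 at such a p. Their median was 0.32 in pair 1, 0.78 in pair 2 and 1.41 in pair 3. The classical heavy chain H2-K1 had 1.04, 0.46 and 1.53 (mean 1.01 ± 0.53), and H2-D1 had 0.47, 0.78 and 1.60 (mean 0.95 ± 0.58). H2-Q7, a nonclassical gene, had 0.32, 1.01 and 1.79 (mean 1.04 ± 0.73), and with H2-K1 it had the largest mean among the listed genes of 1 sign. Heavy chains are near-identical in sequence, and their probes can share target RNA, so values of single heavy chains are uncertain. For the same reason the counts above are not counts of independent genes. They also depend on the probe taken, since a second kept probe of a gene among the 10 was at -0.20 in pair 1. For H2-K1 pair 1 was above pair 2, unlike in the 9 members.

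The other genes of the pathway had lower medians. Of 7 loading chaperones and trimming peptidases 2 were above 0 in all 3 pairs, and the list median over pair means was 0.15. These were Calr (calreticulin) at 0.31, 0.29 and 0.87 and Pdia3 (ERp57) at 0.15, 0.85 and 0.35, both part of the loading complex. Among 15 tested regulators and interferon gamma signaling genes, 2 were above 0 in all 3 pairs and 1 had an unadjusted limma p under 0.05, so the first count was near the 9.95% of all genes. That gene was Irf1, the interferon-induced transcription factor, with ratios of 0.29, 1.53 and 1.63 (mean 1.15 ± 0.75, with an unadjusted p of 0.021). The other was Socs1, a feedback inhibitor of interferon signaling, at 0.16, 0.44 and 0.14.

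Nlrc5, the transactivator of class I genes, had ratios of -0.81, 1.47 and 0.83 (mean 0.49 ± 1.18). Pair 1 was below 0 and pair 2 highest, as for Tap1, Psmb8 and Psmb9, but 3 pairs are too few to compare such orders. A second Nlrc5 probe gave -0.36, 0.87 and 0.40. None of the 41 tested genes in these related lists passed limma after adjustment, and 14 of the 41 were above 0 in all 3 pairs.

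Markers of other cells in the sort were set beside these values, since in bulk RNA fewer cells of a type and less RNA per cell cannot be told apart. Of 14 leukocyte markers 9 were tested, and their summed normalized intensity was 9241 to 12120 under the RANK-/- label and 8669 to 29840 under the RANK+/+ label. Its log2 ratio was -1.30, -0.06 and 0.09 in pairs 1 to 3. Single leukocyte markers ran from -3.99 (S100a8, a neutrophil gene) to 0.49 (Itgam) in pair 1, from -0.23 (Itgam) to 0.30 (Cd52) in pair 2, and from -0.11 (S100a8) to 1.58 (Cd52) in pair 3. Their medians were -0.39, 0.20 and 0.13. Ptprc, which encodes CD45 itself, had -0.93, 0.10 and 0.14. Flt3, Cd79a and Ncr1 were not well above background on any array. The leukocyte sum was thus below 0 in pair 1, where the members' median was near 0, and close to 0 in pairs 2 and 3, where the members' medians were above 1.

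Fibroblast markers had sums of 83250 to 128900 under the RANK-/- label and 29020 to 95670 under the RANK+/+ label (6 of 6 tested). The log2 ratio of the sum was -0.08, 0.82 and 2.15, so that it was near 0 in pair 1 and above 0 in pairs 2 and 3, as for the members' median. Single fibroblast markers did not all follow the sum. Of the 6 markers 5 were above 0 in both pairs 2 and 3, whereas Pdgfrb had 1.60, -1.03 and 0.76 in pairs 1 to 3. In pair 1 Col1a1 was at 0.68 and Dcn at -0.71. The luminal epithelial sum (6 of 6 tested, 125000 to 410600 and 151900 to 248600) had 0.17, -0.99 and 1.43. Basal epithelial markers (5 of 5) had -0.86, -0.35 and 0.03, and endothelial markers (5 of 5) had 0.03, -0.12 and 0.51. The part of leukocytes, fibroblasts or epithelial composition in the members' ratios was not tested.

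**Figure D4:**
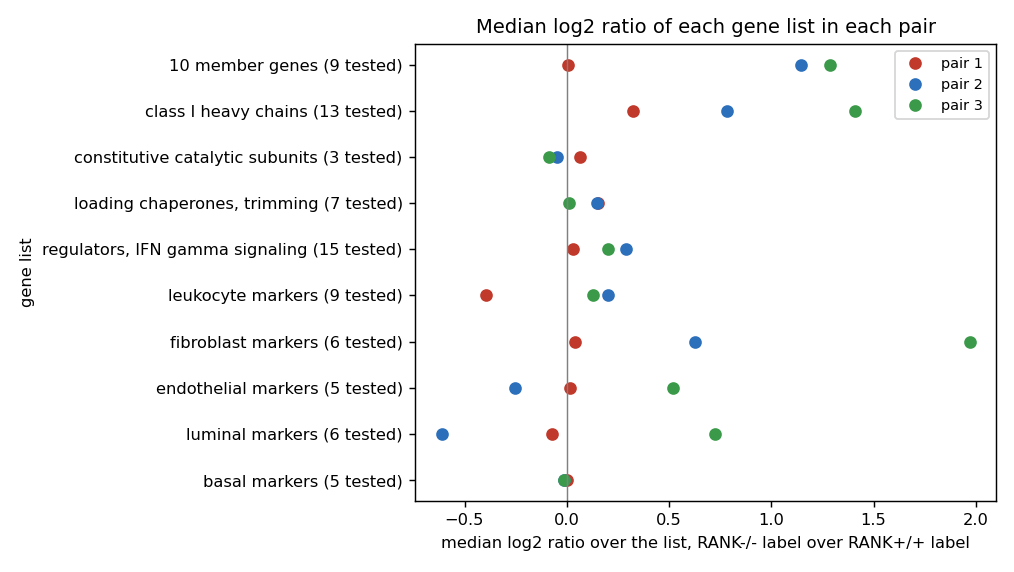
Median log2 ratio (RANK-/- label over RANK+/+ label) over the tested genes of each list, with a point per pair. The members and the class I heavy chains have medians of 0.78 to 1.41 in pairs 2 and 3, the constitutive subunits lie near 0 in all pairs, and the fibroblast markers reach 1.97 in pair 3.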

How the data were processed

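RNA of sorted CD45- cells was measured on 6 two-color arrays, 3 pairs with arrays A and B. The deposited scanner tables, extracted by the authors with Agilent Feature Extraction 10.7.3.1, hold median spot and background intensity per channel, not normalized, and processed intensities that are background-subtracted and dye-normalized. The deposited series table holds log2 ratios normalized by the authors, with its direction unstated. Its values followed the scanner ratios of RANK-/- over RANK+/+ on each array. The log10 ratio of processed Cy5 over Cy3 in the scanner files, per the file headers, was made by the authors from the processed intensities. These were used only as alternatives. Groups, pairs and dyes came from the labels. Per the labels, arrays A and B had the same dye arrangement, although the methods describe dye swaps.

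Median signals, in place of the mean signals planned, were corrected with normexp (offset 50) and normalized by loess within and Aquantile between arrays, with control and outlier spots (212 to 260 per array) left out, in limma 3.58.1 (R 4.3.3, data.table version 1.17.8). Probes of 1 pair were averaged over A and B, n = 3. Probes that Feature Extraction called well above background under 1 label, on arrays A and B of 2 or more pairs, (30230 of 55681) were kept, and the brightest probe stood for a gene. Symbols came from RefSeq (GRCm38.p6) by accession, for 28026 probes. The array grid names mm9, so no coordinates but those of the RefSeq promoter windows are given. Limma (lmFit, eBayes, intercept only, two-sided) was fitted to all 22502 genes with Benjamini-Hochberg adjustment, and a rank product used 500 draws. Steps were tested on simulated data. Precision is limited by the number of arrays.

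The members, lists and tests were chosen with earlier results of these data known. Named were all members, Tnfrsf11a, Psmb5, Psmb6, Psmb7, Psme3, Nlrc5, Irf1, H2-K1, H2-D1 and the 2 genes of each related list with the largest mean among those of 1 sign in all pairs. A further gene that the rule named is not reported here. The alternatives covered background correction, scaling, filters, arrays A or B alone, probe averaging, a dye term, pairing and leaving out each pair.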

Additional observations from a re-analysis of the deposited data

Results flagged for a closer look

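For 4 members, both arrays of pair 1, where RANK-/- was in Cy5, were below 0, and all 4 arrays of pairs 2 and 3, where RANK+/+ was in Cy5, were above 0. Psmb8 had a pair 1 log2 ratio of -0.060 beside 1.49 and 1.40, and Psmb9 had -0.20 beside 1.72 and 1.30. Tap1 had -1.24 beside 1.95 and 1.06, and Tap2 had -0.091 beside 1.15 and 1.83. A dye term, in which the lone pair 1 is assumed to vary like the others, gave limma p values adjusted over all genes of 0.787 for Psmb8, Psmb9 and Tap1 and 0.804 for Tap2 (unadjusted 0.014, 0.015, 0.0096 and 0.032), so none of these differences passed. For Psmb8 and Tap2 the pair 1 values were within 0.10 of 0. With median centring in place of loess, Psmb8, Psmb9 and Tap2 were above 0 in all 3 pairs, and Tap1 was above 0 in 2. Under the other normalizations run, including the ratios normalized by the authors, each of the 4 genes was above 0 in 2 pairs.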

How the results depend on the processing

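No member passed limma after adjustment under any of the alternatives run, and the lowest adjusted p was 0.362 (B2m, pfp of the rank product). All 9 mean ratios stayed above 0 under every alternative, except Psme1 with median centring in place of loess (-0.13) and Tap1 without pair 2 (-0.087, in a range over the left-out pairs up to 1.51). The rank product called 16 genes in place of 0, and with median centring Psmb10 minus Psmb7 was 0.79. Over the alternatives, 4 to 9 members were above 0 in all pairs used, with 7 under median centring. Leaving out each pair gave 5 to 9 members above 0 in all remaining pairs, a median of the means of 0.67 to 1.45, and 0 members and 0 genes past the threshold. Without a pair the difference of Psmb8 minus Psmb5 was 0.64 to 1.47, Psmb9 minus Psmb6 0.39 to 1.65, Psmb10 minus Psmb7 0.87 to 0.94, and Psme1 minus Psme3 -0.15 to 1.05. The RNAs of a pair share arrays, and pairing is the main design. With no replicate block, the channels taken as 3 RANK-/- and 3 RANK+/+ samples, 0 members and 0 genes passed and the median of the means was 0.86, but the unadjusted limma p went from 0.0051 to 0.139 for Psmb10 and from 0.028 to 0.058 for B2m, which leaves Tapbpl (0.033) as the only member under 0.05. The correlations of the paired deviations were -0.03, -0.22 and -0.04. The slide as a block was not run, because all arrays lay on 1 slide. The cause of these shifts was not tested.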
